A study of Mus musculus with 6 samples.

Results

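The transcription factors that commit an embryonic epithelium to a stratified fate were examined in the budding lacrimal gland. The group held 9 genes chosen by symbol, Trp63, Klf4, Klf5, Grhl1, Grhl2, Grhl3, Ovol1, Ovol2 and Zfp750, out of 23420 gene symbols in the count tables. All 9 passed the filter on low counts and were tested together with the other genes, 13087 in all. In the Pea3 TKO bud, 4 of the 9 rose (Zfp750, Ovol1, Grhl3 and Klf5) and none fell at an adjusted p under 0.05. Over all tested genes, 13.6% were called higher and 11.3% lower. With the level of Y-linked genes as a covariate, 1 of the 4, Zfp750, stayed under that threshold. The level of Trp63 could not be told apart between the groups.

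Lacrimal gland epithelium was isolated by laser capture from frozen E14.5 mouse embryos of a mixed background, and RNA was sequenced from 3 control and 3 Pea3 TKO samples. Controls carried the Le-Cre transgene, which expresses Cre in the ocular surface ectoderm including the conjunctiva and the lacrimal gland, and the labels list no further allele for them. Pea3 TKO samples carried the same Le-Cre together with Pea3-/-, Ermfl/fl and Er81fl/fl. The genotype was thus null for Pea3 (Etv4) in the whole embryo, whereas Erm (Etv5) and Er81 (Etv1) were removed only where Cre was active. Whether a sample is 1 embryo or a pool is not stated in the sources used here, so p-values measure the spread between these samples, which may be partly technical. Libraries held between 14194775 and 17860140 counts.

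Stratified epithelia are built in steps. p63, the product of Trp63, sets up the basal layer and its adhesion and is required for epidermis to form at all. Grainyhead-like factors (Grhl1, Grhl2 and Grhl3) drive junction and barrier genes. Among these, Grhl2 is widespread in simple and stratified epithelia, and Grhl3 acts late, in barrier formation and in the periderm, the transient outer layer of embryonic skin. Klf5 is a Krueppel-like factor of proliferating epithelial cells, whereas Klf4 acts in suprabasal cells during barrier acquisition. The zinc finger repressors Ovol1 and Ovol2 restrain progenitor proliferation and mesenchymal genes. Zfp750 is a p63 target that promotes terminal differentiation together with Klf4. The ocular surface, from which the lacrimal bud grows, itself becomes a stratified epithelium.

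The targeted genes were lower in every Pea3 TKO library. Etv5 had 1058 ± 127 CPM (read counts scaled to TMM-normalized library size, mean ± SD, n = 3) in controls and 139 ± 46 in Pea3 TKO, Etv4 had 151 ± 29 and 19.5 ± 8.8, and Etv1 had 31.8 ± 2.8 and 9.52 ± 0.41. Epithelial markers were strong, with Epcam between 1201 and 1500 CPM in all 6 libraries. Some features other than the targeted genes differed between the libraries. Summed lens and retina markers were at 667 CPM in control replicate 2 and between 104 and 187 CPM in the other libraries. Summed mesenchymal markers (14 of 14 genes detected) lay between 428 and 490 CPM in controls. They were at 886 and 1048 in Pea3 TKO replicates 1 and 2, and at 435 in Pea3 TKO replicate 3. Foxc1, Foxc2 and Col5a1 made up most of the control sums, and single genes differed by more than the sum. In control replicates 1 to 3, Dcn had 1.07, 0.249 and 4.42 CPM and Lum 0.338, 1.43 and 8.39 CPM. In Pea3 TKO replicates 1 to 3, Dcn had 69.7, 73.6 and 2.41 CPM and Lum 60.5, 79.9 and 2.06 CPM. Of the 14 genes, 3 were called higher in Pea3 TKO and 1, Foxc2, lower. Summed Y-linked genes lay between 136 and 175 CPM in the controls and at 139 in Pea3 TKO replicate 3, but at 0.44 and 0.21 in Pea3 TKO replicates 1 and 2. Control replicate 1 was the highest of the controls for 7 of the 9 regulators, against 39.4% of all tested genes.

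**Figure D1:**
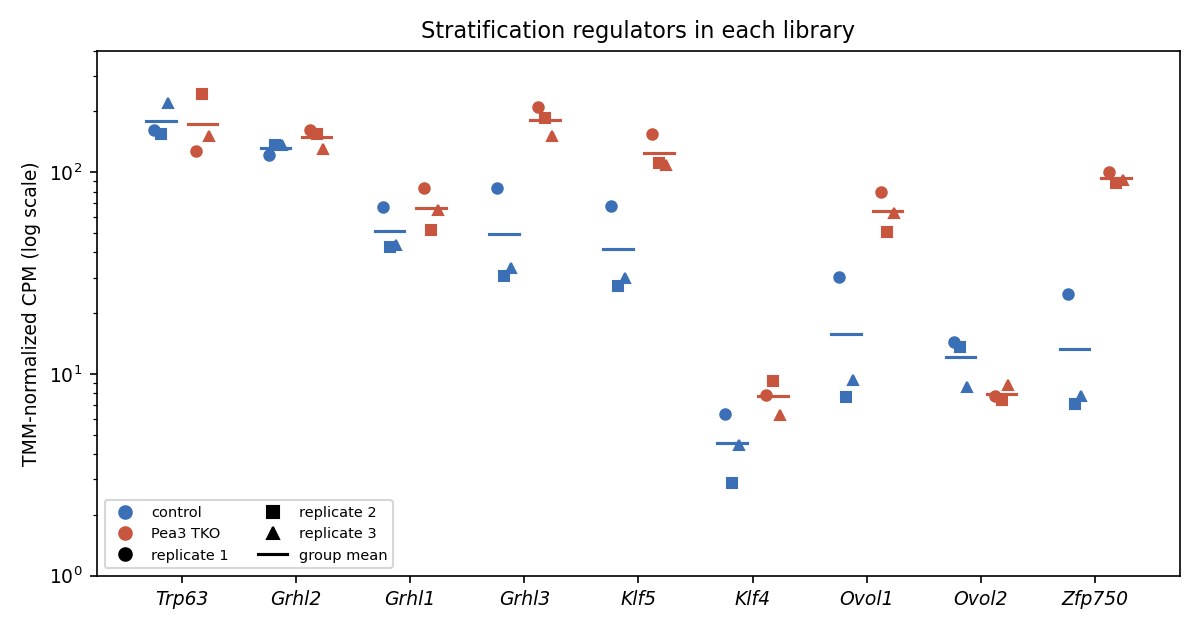
TMM-normalized CPM (log axis) of the 9 regulators in each library, with control in blue, Pea3 TKO in red, a symbol for each replicate and a line at each group mean (n = 3). Grhl3, Klf5, Ovol1 and Zfp750 had every Pea3 TKO library above every control library, and control replicate 1 (blue circle) was the highest control for these 4 genes.

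The starting point was Trp63, whose gene spans chromosome 16, 25683763 to 25892102 (GRCm38, GENCODE M21). Its level was 162, 155 and 221 CPM in control replicates 1 to 3 and 127, 244 and 151 CPM in Pea3 TKO replicates 1 to 3. The highest and the lowest library both belonged to Pea3 TKO, and the groups overlapped throughout. The means were 179 ± 36 and 174 ± 62 CPM, or -0.04 as a log2 fold change (standard error, SE, 0.23), with an adjusted p of 0.92 by edgeR's quasi-likelihood test with Benjamini-Hochberg adjustment over all tested genes, used for all adjusted p-values of genes here. The 95% interval of the fold ran from 0.678 to 1.39, so changes inside that range remain compatible with these 3 libraries per group. Its sign turned positive (up to 0.14 on the log2 scale) when control replicate 3, Pea3 TKO replicate 1 or Pea3 TKO replicate 3 was left out. The annotation gives 3 start sites of coding transcripts spread over 118.2 kb of this gene. Counts per gene do not separate the long from the ΔN isoforms that start at different sites.

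At an adjusted p threshold of 0.05, 4 of 9 regulators were called, all of them higher, against 25% of all tested genes called in either direction, 13.6% called higher and 11.3% called lower. In these 4, the groups did not overlap, as for 43.9% of all tested genes. With 9 genes selected for their known role and with earlier results of these data known, the counts are a description of these genes.

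Zfp750 lies on chromosome 11 from 121510978 to 121519333 and showed the widest change. It had 25.0, 7.10 and 7.80 CPM in the controls and 100.3, 88.9 and 92.0 CPM in the Pea3 TKO libraries. All Pea3 TKO libraries were alike, and the lowest of them was 3.55-fold above the highest control. The mean rose from 13.3 ± 10.2 to 93.7 ± 5.9 CPM, which is 2.81 on the log2 scale (SE 0.42, adjusted p = 0.0016), or 7.003-fold with a 95% interval from 3.66 to 13.4. Zfp750 sits inside the gene Tbcd on the opposite strand and shares 0 exonic bases with it. Tbcd, looked at for this reason only, stood at 88.1 ± 10.2 CPM in the control group and at 80.4 ± 6.1 CPM in the Pea3 TKO group (adjusted p = 0.52).

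Ovol1, on chromosome 19 from 5549136 to 5560646, rose as well. The controls had 30.2, 7.66 and 9.30 CPM and the Pea3 TKO libraries 79.6, 50.7 and 62.5 CPM. Every Pea3 TKO library was above every control, the nearest pair being Pea3 TKO replicate 2 and control replicate 1. The mean went from 15.7 ± 12.5 to 64.3 ± 14.52 CPM, a difference of 2.03 on the log2 scale (SE 0.45, adjusted p = 0.011). Its family member Ovol2, on chromosome 2 from 144305175 to 144332146, did not follow. Its controls had 14.4, 13.5 and 8.58 CPM, and its Pea3 TKO libraries 7.75, 7.41 and 8.81 CPM. Replicates 1 and 2 of the controls were above all Pea3 TKO libraries, whereas control replicate 3 lay among them. Ovol2 thus differed by -0.61 on the log2 scale (SE 0.30, adjusted p = 0.17), with a 95% interval from -1.27 to 0.06.

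Grhl3 (chromosome 4, 135541888 to 135573630) increased in mean level from 49.1 ± 29.7 to 182 ± 30 CPM. Single values were 83.4, 30.4 and 33.6 CPM in the controls and 211, 185 and 152 CPM in Pea3 TKO. The lowest Pea3 TKO library exceeded the highest control 1.82-fold, and the groups differed by 1.89 on the log2 scale (SE 0.34, adjusted p = 0.0042). Grhl1, on chromosome 12 from 24572283 to 24617391, ran at 67.6, 42.7 and 43.8 CPM among the controls, against 83.1, 51.9 and 65.2 CPM among Pea3 TKO libraries. These groups overlapped at control replicate 1, and the log2 fold change of 0.38 (SE 0.22) had an adjusted p of 0.25. Without that library the log2 fold change of Grhl1 was 0.62 (adjusted p = 0.049). Grhl2, on chromosome 15 from 37233036 to 37363569, was the steadiest regulator, at 121, 136 and 136 CPM in controls and 162, 155 and 131 CPM in Pea3 TKO. The difference was 0.19 on the log2 scale (SE 0.12, adjusted p = 0.30), and the 95% interval of the fold ran from 0.941 to 1.38.

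Klf5, on chromosome 14 from 99298691 to 99315036, had 68.3, 27.4 and 29.8 CPM in the controls against 155, 112 and 109 CPM in Pea3 TKO. The groups were separate, with the lowest Pea3 TKO library 1.59-fold above control replicate 1. The mean rose from 41.8 ± 22.9 to 125 ± 26 CPM, or by 1.58 on the log2 scale (SE 0.32, adjusted p = 0.0073). Klf4, on chromosome 4 from 55527143 to 55532466, was the least abundant of the 9 genes. Control libraries gave 6.31, 2.87 and 4.42 CPM, and Pea3 TKO libraries 7.87, 9.23 and 6.23 CPM. The lowest Pea3 TKO library fell just under control replicate 1, and the log2 fold change of 0.78 (SE 0.40) had an adjusted p of 0.19 and a 95% interval from -0.12 to 1.67. An increase of Klf4 as large as the estimate for Klf5 lay inside that interval.

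**Figure D2:**
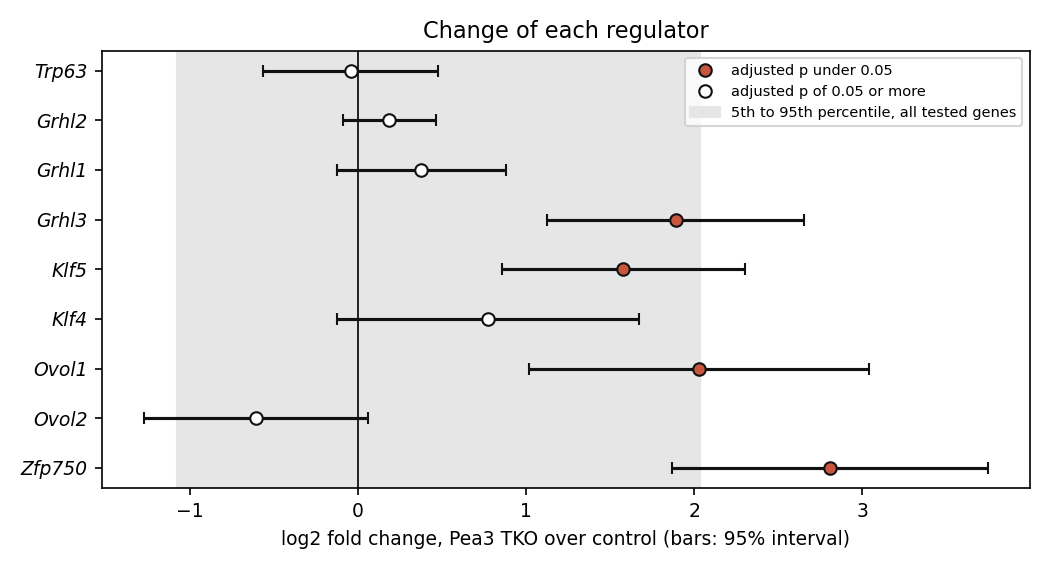
Log2 fold change of each regulator, Pea3 TKO over control, with its 95% interval from the quasi-likelihood fit (n = 3 per group). Filled points (Grhl3, Klf5, Ovol1, Zfp750) have an adjusted p under 0.05, and the grey band spans the 5th to 95th percentile of all 13087 tested genes, from -1.08 to 2.04.

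Because Y-linked reads were near 0 in Pea3 TKO replicates 1 and 2, embryo sex and genotype cannot be fully told apart. With the Y-linked level as a covariate the log2 fold changes were 2.83 for Zfp750, 2.05 for Ovol1, 1.66 for Grhl3 and 1.41 for Klf5, and 1 of the 4, Zfp750, remained under the threshold (adjusted p = 0.020). The others had adjusted p-values of 0.096, 0.077 and 0.11 in that order. Setting only the controls against Pea3 TKO replicate 3, whose Y-linked level matched theirs, gave 2.80, 2.01, 1.64 and 1.39, with 0 of 9 regulators called (smallest adjusted p = 0.057). That fit, added after the data had been seen, assumes that the lone Pea3 TKO library varies as the controls do. In Pea3 TKO replicate 3 the summed mesenchymal markers, mostly Foxc1, Foxc2 and Col5a1, also lay within the range of the controls. That library had 92.0 CPM of Zfp750, 62.5 of Ovol1, 152 of Grhl3 and 109 of Klf5. Whether mesenchymal content affected these levels was not tested.

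Within each family the makeup was compared inside single libraries, since a ratio of counts from the same library does not depend on how libraries are scaled. Reads on Ovol1 per read on Ovol2 were 2.10, 0.568 and 1.08 in the controls and 10.2, 6.81 and 7.07 in Pea3 TKO. The ratio was 7.26-fold higher in Pea3 TKO, and the groups did not overlap. Fold differences of ratios are taken here between the group means of the log2 ratios. Reads on Grhl3 per read on Grhl2 went from 0.689, 0.224 and 0.246 to 1.30, 1.19 and 1.16, a 3.61-fold difference with no overlap. Klf4 relative to Klf5 moved the other way, from 0.0929, 0.106 and 0.149 to 0.0509, 0.0829 and 0.0576. Grhl1 relative to Grhl2 overlapped between the groups, with means on the log2 scale of -1.38 ± 0.47 and -1.18 ± 0.35. By the exact two-sided permutation test the first 3 of these 4 ratios each gave p = 0.10, the smallest value that 3 against 3 samples allow, and an adjusted p of 0.13 over the 4 ratios, while Grhl1 over Grhl2 gave p = 0.80. No ratio could therefore pass 0.05 by this test. The ratios use the same counts as the fold changes above and are not separate evidence.

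**Figure D3:**
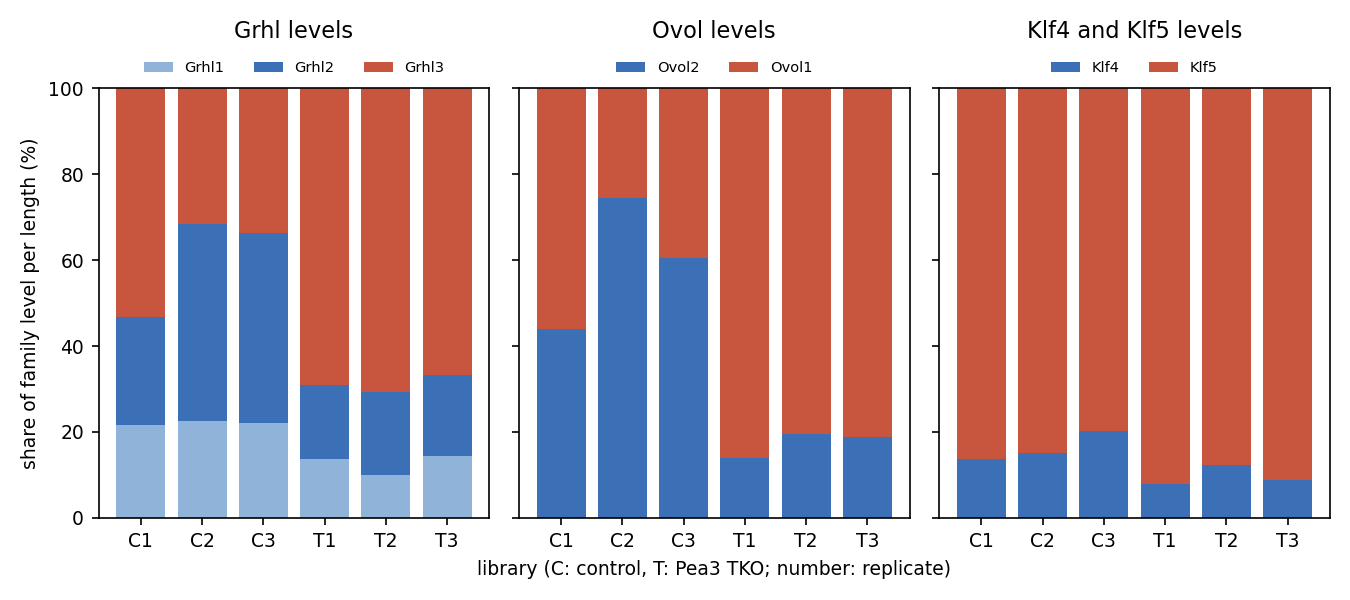
Share of each family's summed level per length (%) taken by each gene in each library (C, control; T, Pea3 TKO). Ovol1 made up 25.6% to 56.0% of the Ovol level in controls and 80.6% to 86.2% in Pea3 TKO, and Grhl3 made up 31.7% to 53.2% and 66.9% to 70.7% of the Grhl level. The shares depend on the annotated exon length of each gene.

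The order of the regulators by level per length changed accordingly. Levels are given here as RPKM, the CPM divided by the kilobases of annotated exons of a gene. The exons of all transcripts were joined, giving 2789 bases for Grhl3 and 8613 for Grhl2, and the order depends on these lengths. In CPM, Grhl2 stood above Grhl3 in controls (131 ± 8.6 and 49.1 ± 29.7). In controls Trp63 led with 21.4 ± 4.3 RPKM, followed by Grhl3 (17.6 ± 10.7), Grhl2 (15.2 ± 1.0), Grhl1 (9.27 ± 2.54), Klf5 (8.04 ± 4.41), Ovol2 (5.76 ± 1.48), Ovol1 (4.50 ± 3.60), Zfp750 (4.12 ± 3.14) and Klf4 (1.49 ± 0.57). Neighbours in this order had overlapping ranges over the libraries, except Grhl2 and Grhl1 and except Zfp750 and Klf4. In Pea3 TKO Grhl3 came first with 65.4 ± 10.6 RPKM, apart from all others on this scale. In CPM, Grhl3 overlapped there with Trp63 (182 ± 30 and 174 ± 62). Zfp750 was next at 29.0 ± 1.8 RPKM, having been last but one among the controls. Klf5 (24.1 ± 5.0), Trp63 (20.8 ± 7.4), Ovol1 (18.4 ± 4.2) and Grhl2 (17.3 ± 1.9) followed, and from Zfp750 to Grhl2 each gene overlapped with its neighbour. Grhl1 (12.05 ± 2.83), Ovol2 (3.78 ± 0.35) and Klf4 (2.55 ± 0.49) closed the order without overlap. In bulk samples such as these, fewer cells of a type and less RNA per cell cannot be told apart.

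The 4 regulators that rose also shared their variation among the controls. Control replicate 1 exceeded the mean of the other controls 3.56-fold for Ovol1, 3.36-fold for Zfp750, 2.61-fold for Grhl3 and 2.39-fold for Klf5. The same ratio was 1.73 for Klf4, 1.56 for Grhl1, 1.30 for Ovol2, 0.891 for Grhl2 and 0.864 for Trp63. Genes listed for terminal differentiation (34 in the tables) summed to 555 CPM in control replicate 1 and to 375 and 319 CPM in the others. In Pea3 TKO they summed to 1586 to 1994 CPM. Of these, Trim29 (232, 240 and 203 CPM in control replicates 1 to 3) and Dsc2 (182, 81.6 and 71.7) made up most of the control sums. The part of this library in the results is visible in the fits without it, in which the log2 fold changes were 3.65 for Zfp750, 2.92 for Ovol1, 2.51 for Grhl3 and 2.13 for Klf5.

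**Figure D4:**
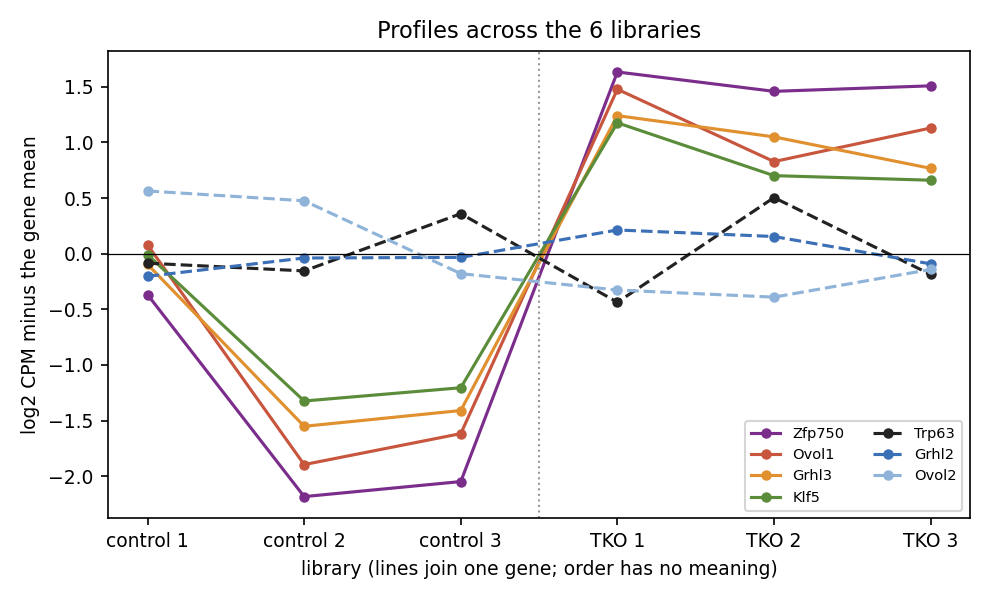
Log2 CPM of 7 regulators in each library after subtracting the mean of that gene over the 6 libraries. The 4 regulators that rose (solid lines) were lowest in control replicates 2 and 3, intermediate in control replicate 1 and highest in Pea3 TKO. Trp63, Grhl2 and Ovol2 (dashed) did not share this shape. Klf4 and Grhl1, which are not drawn, were also lowest in control replicates 2 and 3. Their values in control replicate 1 (0.13 and 0.24) lay among their Pea3 TKO libraries.

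Likeness between genes was measured as the Euclidean distance between such centred profiles over the 6 libraries, where 0 means the same profile. Profiles were not scaled, so the distance reflects the size of the differences between libraries as well as their shape. Genes that vary little, such as Trp63 and Grhl2, can therefore lie near each other without a shared shape. Among the 9 regulators, Klf5 and Grhl3 were nearest to each other (0.488), followed by Grhl3 and Ovol1 (0.655), Trp63 and Grhl2 (0.857), Grhl1 and Grhl2 (0.860), and Klf5 and Ovol1 (0.912). Zfp750 had Ovol1 as its nearest regulator (1.02). Over all tested genes, the 3 nearest to Zfp750 were Fam84a (0.197), Dsc3 (0.339), a desmosomal cadherin of stratified epithelium, and Parp9 (0.496). Those nearest to Grhl3 were Il17rc (0.212), the suprabasal keratin Krt1 (0.343) and Metrnl (0.354). Ovol1 was closest to Cds1 (0.350), Alox12 (0.462) and Tmem79 (0.579), and Klf5 to Epn3 (0.262), the ceramide synthase Cers3 (0.284) and Faah (0.328). Trp63 was closest to Pdik1l, AI597479 and Slc39a9 (0.227 to 0.252), Grhl2 to Psmd9, Ctdsp2 and Pogz (0.0773 to 0.110) and Grhl1 to Dnajc4, Hps1 and Vrk3 (0.161 to 0.220). The nearest genes were Glrb, Tmem120b and 2310030G06Rik for Klf4 (0.216 to 0.244) and 1600002H07Rik, Ptrhd1 and the Notch effector Rbpj for Ovol2 (0.276 to 0.306). Each set was picked from 13087 profiles, so closeness follows from the search, and all profiles share the same 6 libraries.

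Promoters of 4 regulators (Klf4, Grhl1, Grhl3 and Ovol2) were matched in RefSeq sequences of GRCm38.p6, as 5 windows from 250 bases before to 50 bases after a start site, and no entry was matched for Trp63, Klf5, Grhl2, Ovol1 and Zfp750. The windows were searched on both strands for 5 short motifs. The letters CCGGAAG (ETS factors), AACNGGTT (Grainyhead-like) and CCGTTA (Ovol) and the p63 half-site pair occurred in none of the 5 windows. Among all 32851 windows of the same length, 8.86%, 2.09%, 2.76% and 0.712% held them in that order. The Krueppel-like motif GGGNGGGG, present in 33.2% of all windows, occurred 5 times in Klf4, where some matches overlap, and 1 time in the upstream window of Grhl1. A match is a run of letters and not a measured binding site, and no match says only that these letters are not in the window. The 250 bases before the start are shown for Grhl3, the regulator with a promoter in the table that rose, and for Klf4, which held most motif matches and was not called. Both lie on the minus strand and read 5′ to 3′ towards the gene, with the Krueppel-like motif in capitals.
Grhl3, chr4:135573633-135573882: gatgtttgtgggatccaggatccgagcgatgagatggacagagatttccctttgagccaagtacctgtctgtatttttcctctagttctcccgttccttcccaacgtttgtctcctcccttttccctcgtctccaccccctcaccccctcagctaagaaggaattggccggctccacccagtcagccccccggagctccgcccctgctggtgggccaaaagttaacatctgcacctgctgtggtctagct
Klf4, chr4:55532476-55532725: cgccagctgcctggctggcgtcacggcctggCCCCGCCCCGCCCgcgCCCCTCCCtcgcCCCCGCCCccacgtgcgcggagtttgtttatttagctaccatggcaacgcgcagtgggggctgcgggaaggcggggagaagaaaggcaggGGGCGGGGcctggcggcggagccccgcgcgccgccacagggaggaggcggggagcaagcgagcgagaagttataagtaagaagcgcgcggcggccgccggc

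The genes around these regulators were described in lists put together by role, which share some genes. Of 37 listed genes of terminal differentiation, 34 were in the tables and 18 passed the filter on low counts. Some of the genes not tested, such as Flg2, Sprr1b, Sprr3 and Tgm3, had 0 counts in every library. Others were low, such as Lor, which averaged 0.117 CPM in controls and 1.27 CPM in Pea3 TKO. A gene that passed through its Pea3 TKO level alone had to differ, so the count is a description. Of the 18 tested, 17 rose and 0 fell, against 13.6% called higher over all tested genes, with a median log2 fold change of 3.04 against 0.01 over all tested genes. Pkp1, a desmosomal plaque protein, went from 6.88 ± 5.58 to 112 ± 18 CPM, and the envelope precursor Evpl from 6.84 ± 1.88 to 48.9 ± 19.5 (adjusted p = 5e-04 and 4.8e-04). Trim29, which is also in the p63 list, went from 225 ± 19 to 477 ± 33 CPM. Control replicate 1 was the highest control for 15 of these 18 genes, 15 of 19 Grainyhead-like targets and 18 of 33 p63 targets. The same held for 17 of 27 other commitment regulators, 9 of 17 family relatives and 3 of 13 mesenchymal and progenitor genes. Over all tested genes the share was 39.4%.

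Of 19 tested genes held to be Grainyhead-like targets, 14 rose and 1, Lmo4 (named after its values had been seen), fell, and the median log2 fold change was 0.93. The share that rose compares with 13.6% of all tested genes. Cdh1, the epithelial cadherin, rose from 499 ± 63 to 1066 ± 38 CPM, Cldn4, a tight junction claudin, from 40.5 ± 9.3 to 135 ± 10, and Esrp2, an epithelial splicing factor, from 51.5 ± 14.8 to 188 ± 36. Their adjusted p-values were between 2.2e-04 and 4.5e-04.

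Of 33 tested genes attributed to p63 as targets, 18 rose and 5 fell, with a median log2 fold change of 0.63. Over all tested genes 13.6% were called higher and 11.3% lower, so the share that fell was near the background. The basal keratin Krt14 rose from 88.2 ± 13.7 to 610 ± 160 CPM and the Notch ligand Jag1 from 36.1 ± 7.6 to 167 ± 8. The log2 fold changes of those that fell ran from -2.51 for Gpx2 to -0.45 for Tfap2c, both named after their values had been seen.

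Among 27 other regulators of epidermal commitment, 10 rose and 4 fell (median log2 fold change 0.38), beside 13.6% and 11.3% of all tested genes, so the share that fell was near the background. The epithelial ETS factors Elf3 (80.5 ± 33.2 to 310 ± 39 CPM) and Ehf (88.5 ± 25.0 to 242 ± 33) rose, and Tfap2b, an AP-2 factor of the ocular surface, fell from 203 ± 4 to 96.6 ± 19.1. Of 17 tested relatives from the p53, Krueppel-like and CP2 families, 3 rose and 1 fell, a share close to the 25% called over all tested genes. Klf6 went from 54.7 ± 5.1 to 136 ± 8 CPM and Klf3 from 63.2 ± 10.7 to 117 ± 20, while Trp53 fell from 461 ± 33 to 319 ± 41. Mesenchymal and progenitor genes described as held down by Ovol and Grainyhead-like factors (13 tested) included 1 that rose, Zeb2, and 3 that fell. Over all tested genes 13.6% were called higher and 11.3% lower. Among those not called, log2 fold changes were 2.59 for Twist2, 2.28 for Snai1, 1.98 for Twist1 and 0.70 for Zeb1, all at low counts. They were 0.10 for Snai2, 0.15 for Vim and -0.04 for Cdh2. In Pea3 TKO replicate 3, Twist1 and Twist2 had 0.235 and 0.470 CPM. Id2 fell from 421 ± 54 to 112 ± 8 CPM, Tgfb1 from 46.6 ± 10.6 to 12.3 ± 3.8, and Myc from 249 ± 17 to 132 ± 32. Zeb2, named after its values had been seen, averaged 0.760 CPM in controls and 4.75 CPM in Pea3 TKO. Single values of Zeb2 were 5.97, 3.36 and 4.93 CPM in Pea3 TKO replicates 1 to 3. A link to the mesenchymal content of the libraries was not tested.

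**Figure D5:**
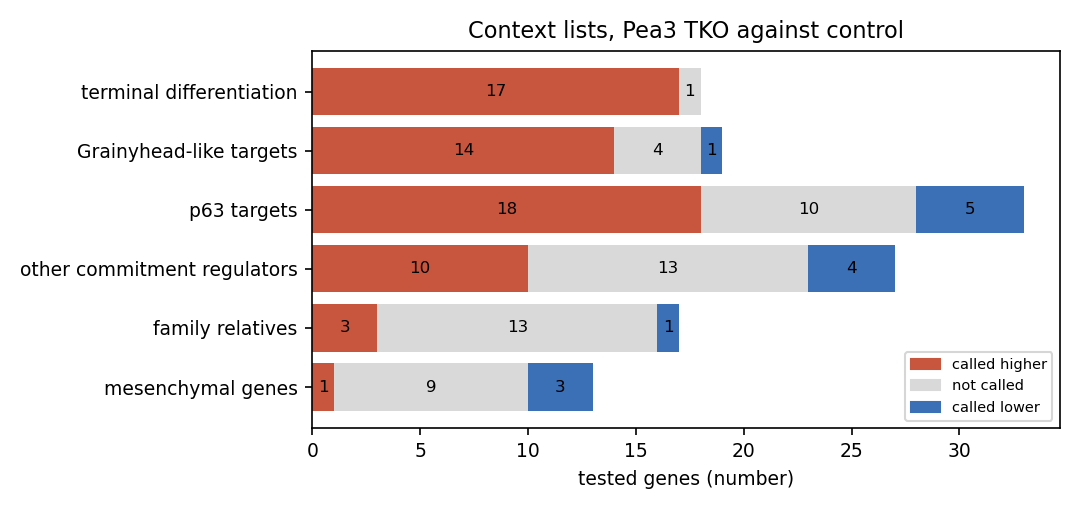
Number of tested genes in each list that were called higher (red), not called (grey) or called lower (blue) in Pea3 TKO against control at an adjusted p under 0.05. Terminal differentiation genes were called higher in 17 of 18 tested cases, against 13.6% of all tested genes. Of their 34 genes in the count tables only these 18 were tested, some of them through their Pea3 TKO level alone. Among 17 family relatives, 13 were not called. The row of mesenchymal genes also holds progenitor genes.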

How the data were processed

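Laser-captured E14.5 lacrimal gland epithelium from 3 control and 3 Pea3 TKO samples was amplified and sequenced by the authors, who deposited raw read counts per gene symbol, 1 table per sample, with no normalization. The processing notes of the submitters name STAR 2.5.2b, featureCounts 1.5.0-p3, DESeq and mm10 without roles, and the gene annotation and strand setting are not given in the sources used here. Groups follow the sample titles.

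Genes were kept by filterByExpr (edgeR 4.0.16, R 4.3.3), leaving 13087 of 23420. Counts were scaled by TMM and tested by edgeR's quasi-likelihood method in a model holding the genotype group alone, with p-values adjusted after Benjamini and Hochberg over every tested gene. The standard error of a fold change was obtained from its F statistic, and 95% intervals use the t quantile of the fit. The fit was tested on simulated counts. Profiles used a prior count of 0.25 and ratios a count of 0.5 added to both genes. At these depths 3 counts correspond to 0.169 to 0.210 CPM, a limit from counting error only. Replicates differed by far more than sampling noise. Exon lengths and positions come from GENCODE M21 (GRCm38).

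Named genes are the 9 members, the targeted genes, the 3 smallest p-values of each list and the 3 nearest profiles of each member, with exceptions marked. Members and lists were chosen with earlier results of these data known. Single genes given to show what a list or a marker sum holds were named after the data had been seen. Alternatives covered DESeq2 1.42.0, other scalings and filters, the replicate number as a block, a Y-linked covariate and leaving out each sample. A fit of only the libraries with Y-linked reads at the control level was added after the data had been seen.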

Additional observations from a re-analysis of the deposited data

How the results depend on the processing

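Zfp750, Ovol1, Grhl3 and Klf5 stayed higher and under the threshold with DESeq2, the other scalings and filters, the replicate block and each sample left out. With the Y-linked covariate 1 regulator was called higher, Klf5, Grhl3 and Ovol1 being at 1.41, 1.66 and 2.05 on the log2 scale, the estimate of Grhl2 turned to -0.010, and 778 genes were called in all. Among only the libraries with Y-linked reads at the control level, a choice made after the data were seen, 0 regulators and 597 genes were called, with Klf5 at 1.39, Grhl3 at 1.64, Ovol1 at 2.01 and Zfp750 at 2.80. Leaving out each sample gave -0.36 to 0.14 for Trp63 and 0.19 to 0.62 for Grhl1, which passed the threshold without control replicate 1. All called genes then numbered 1948 (without control replicate 3) to 3344, with 1963 without control replicate 2 and 2072 without Pea3 TKO replicate 2. The medians ranged from 0.82 to 1.15 for Grainyhead-like targets, 2.65 to 4.11 for terminal differentiation and 0.41 to 0.79 for other commitment regulators, whose calls ranged from 8 (without control replicate 2) to 17, and calls among family relatives from 2 (without control replicate 2 or Pea3 TKO replicate 2) to 4. No regulator was called lower under any alternative. The cause of these shifts was not tested, beyond the smaller number of samples.

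With the replicate number as a block, 4 regulators and 3191 genes were called. Deviations of samples with the same number correlated between -0.03 and 0.11 and those with different numbers between -0.09 and 0.13, and control replicate 2 correlated best with Pea3 TKO replicate 3, so the numbers were not taken to pair samples. Depth limits Klf4 most, with 46 to 132 counts per library.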
